A study of Mus musculus with 3 samples.

Results

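The 40 genes described here encode proteins that fold, modify, move or destroy proteins in the endoplasmic reticulum (ER), together with the sensors of the unfolded protein response. They were picked by name from the 24063 genes of the blastocyst count table, to ask whether higher Pdia3 and Calr in NOD blastocysts went with a general difference in ER folding genes. All 40 were in the table and all 40 passed the filter on low counts, among 14456 genes tested.

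The data were 3 libraries of untreated mouse blastocysts, 1 from the inbred strain C57BL/6 (B6) and 2 from the diabetes-prone inbred strain NOD. No transgene or deletion is given for either strain, and neither the age of the donor mice nor the sex of the embryos is given in the sources used here. The labels call the input whole blastocysts, whereas the study's methods describe single inner cell masses (ICMs), so the values are not assigned to a compartment of the embryo. Nothing in the labels says whether the NOD libraries came from separate litters. The p values measure only the spread between these samples, which for B6 (n = 1) is assumed to equal that of NOD (n = 2). With 1 B6 library, a difference of strain cannot be told apart from one of that sample or its preparation.

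Secreted and membrane proteins enter the ER through the Sec61 channel. Inside, the chaperone BiP and its helpers bind them, disulfide isomerases join their cysteines, and the lectins calreticulin and calnexin hold glycoproteins until their sugars show that folding is complete. Proteins that fail are pulled back to the cytosol and degraded. When unfolded proteins build up, 3 sensors in the ER membrane respond. IRE1 (Ern1) splices the mRNA of the transcription factor Xbp1, ATF6 (Atf6) is cut to release a transcription factor, and PERK (Eif2ak3) slows translation and favours Atf4. XBP1 and ATF6 switch on many of the genes described here. The blastocyst secretes basement membrane proteins and growth factors, all of which pass through the ER.

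XBP1 and ATF6 act partly through the ER stress response element, ERSE, which is CCAAT, any 9 bases and then CCACG, and through a short form, ERSE-II, which is ATTGG, any 1 base and then CCACG. Both were searched on both strands from 250 bases before to 50 bases after the start of each gene (RefSeq promoters, GRCm38.p6). These are letters of the reference genome, and the sequence of NOD was not read. A promoter was matched to 32 of the 40 genes. P4hb, Hyou1, Manf, Atf6, Derl1, Sec61a1, Ssr2 and Erp29 were not matched. ERSE was found in 9 of the 32 promoters (28.1%) and in 27 of 16613 promoters of all genes (0.163%), and ERSE-II was found in 2 (6.25%) and in 8 (0.0482%). The element was originally described in promoters of genes of this kind, so that these shares are not independent of how the genes were picked. The stretches that hold it are shown here because 11 of the 32 promoters (34.4%) hold one of these elements, each read in the direction of its gene with the element in capitals and 8 bases on each side. Where the capitals begin with CGTGG, the element lies on the opposite strand.
Hspa5: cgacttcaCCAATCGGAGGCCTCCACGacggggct
Dnajc3: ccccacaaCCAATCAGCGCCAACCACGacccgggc
Pdia6: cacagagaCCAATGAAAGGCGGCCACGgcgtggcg
Canx: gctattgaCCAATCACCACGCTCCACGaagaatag
Syvn1: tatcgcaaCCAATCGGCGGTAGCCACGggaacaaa
Hsp90b1: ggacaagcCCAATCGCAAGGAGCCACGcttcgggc
Hsp90b1, nearer site: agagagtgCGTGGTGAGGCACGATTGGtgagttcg
Creld2: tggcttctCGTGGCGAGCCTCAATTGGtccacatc
Calr: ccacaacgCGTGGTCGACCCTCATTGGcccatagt
Derl3: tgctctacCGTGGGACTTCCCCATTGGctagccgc
Herpud1, ERSE-II: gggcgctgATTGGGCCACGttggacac

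In mm10 coordinates these stretches lie at chr2:34772017-34772051 on the plus strand for Hspa5, chr14:118937819-118937853 on the plus strand for Dnajc3, chr12:17266483-17266517 on the plus strand for Pdia6 and chr11:50325792-50325826 on the minus strand for Canx. That of Syvn1 lies at chr19:6046524-6046558 on the plus strand, those of Hsp90b1 at chr10:86705630-86705664 on the minus strand and chr10:86705525-86705559 on the minus strand, and that of Creld2 at chr15:88819512-88819546 on the plus strand. That of Calr lies at chr8:84847067-84847101 on the minus strand, that of Derl3 at chr10:75893234-75893268 on the plus strand and that of Herpud1 at chr8:94386369-94386395 on the plus strand. All lie before the annotated start of transcription. The second ERSE-II match, in Dnajb11, lies 7 to 17 bases after the start. The promoter of Pdia3, the gene from which the question started, holds no exact match of either element. It does hold a stretch with 9 of the 10 fixed letters of ERSE in place, as do 16 of the 32 member promoters and 1.81% of all promoters, exact matches included, a count added after the letters had been seen. The 250 bases before its start (chr2:121413652-121413901 on the plus strand) are shown because the question began with this gene.
Pdia3: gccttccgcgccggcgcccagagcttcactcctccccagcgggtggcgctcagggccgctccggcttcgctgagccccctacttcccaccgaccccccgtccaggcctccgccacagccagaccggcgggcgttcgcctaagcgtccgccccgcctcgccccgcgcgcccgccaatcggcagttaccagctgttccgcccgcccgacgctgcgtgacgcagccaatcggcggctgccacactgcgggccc

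Among the members that were higher in NOD by the test described below, 6 of the 17 with a promoter held ERSE (35.3%), against 3 of the other 15 (20%). Over all genes with a promoter, 8 of 1100 that were called higher held it (0.727%), and 12 of 9459 that were tested and not called higher (0.127%). Members make up 6 of those 8 and 3 of those 12, and without them the shares were 2 of 1083 (0.185%) and 9 of 9444 (0.0953%), so that nothing is read from this difference. The UPRE (TGACGTGG), a site for ATF6 and XBP1, was found in none of the 32 member promoters and in 0.71% of all promoters. The ATF4 composite element (TGATG, any 1 base, AAT) was likewise found in none of them, and in 0.843% of all promoters. Shares this low leave few or no matches to be found in 32 promoters, so nothing is read from the absence of these 2 elements. A match is a description of letters and not of binding.

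**Figure D1:**
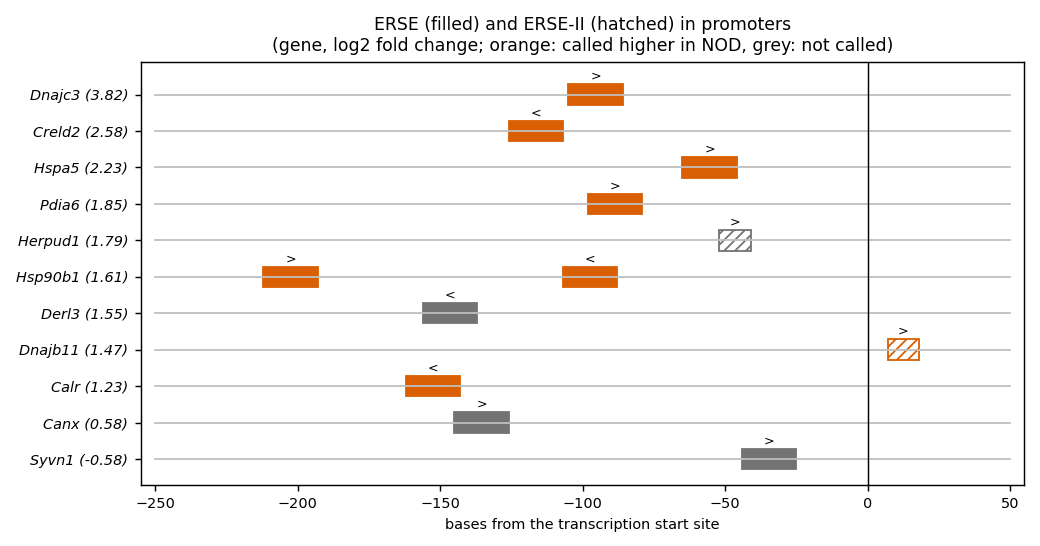
Positions of ERSE (filled boxes) and ERSE-II (hatched boxes) in the promoters of the 11 members that hold one, in bases from the start of transcription (vertical line), with arrowheads for the strand. Genes are ordered by log2 fold change of NOD against B6, given in brackets, from 3.82 for Dnajc3 to -0.58 for Syvn1, and elements are seen in genes that were called higher (orange) and in genes that were not called (grey).

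The total on genes was 12505685 counts for B6, 33891715 for NOD 1 and 36171013 for NOD 2, so that B6 limits the precision. Levels are given as CPM, the count of a gene relative to the library's total after edgeR's TMM scaling. A single count was worth 0.0734 CPM in B6, 0.0303 CPM in NOD 1 and 0.0294 CPM in NOD 2. The fold change of NOD against B6 and its adjusted p are from edgeR's quasi-likelihood test with Benjamini-Hochberg adjustment over all 14456 genes, and the word called is kept for genes with an adjusted p below 0.05 that changed 2-fold or more. Trophectoderm markers were lower in both NOD libraries for 7 of the 9 tested, where the share over all genes was 39.4% (10 in the list, with Elf5 too low to test), their summed level being 3178 CPM in B6 and 1709 to 1895 CPM in NOD, and none was called. The 8 ICM markers summed to 446 CPM in B6 and 766 to 971 CPM in NOD. In both NOD libraries 6 of them were higher and 2 lower, where the shares over all genes were 45.3% and 39.4%. Tdgf1, Gdf3 and Zfp42 were called higher and Sox2 lower, where the shares over all genes were 10.3% and 7.39%. The 9 primitive endoderm markers summed to 810 CPM in B6 and 794 to 1008 CPM in NOD. Of the 8 tested, 3 were higher and 2 lower in both NOD libraries, beside the same shares. Pdgfra was called higher and Gata6 lower. Foxa2 was at 0 in all libraries and Sox17 at 0 in B6 and NOD 1. The part of these differences in the results below was not tested, and in samples of whole tissue fewer cells of a type and less RNA per cell cannot be told apart. The 7 leukocyte genes summed to 0.294 to 1.03 CPM, with Ptprc, Lyz2, Fcer1g and Cd79a at 0. Of the 5 cumulus cell genes (5.36 to 19.8 CPM) Has2, Ptgs2 and Ptx3 were at 0 and nearly all counts were on Amhr2, at 5.36 CPM for B6, 8.44 for NOD 1 and 19.7 for NOD 2. The 4 genes of oviduct and uterus summed to 0.587 CPM in B6 and 3.38 to 8.56 CPM in NOD, mostly Muc1, which had 0.514, 8.56 and 2.91 CPM in the same order. Neither gene was called, and the part of these cells in the results below was not tested.

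Of the 40 genes, 19 were called higher in NOD, where the background was 10.3% of all genes tested, and 1 was called lower, where the background was 7.39%. The other 20 were not called. As shares, 47.5% of the 40 genes were called higher. The CPM of both NOD libraries lay above B6 for 31 of them (background 45.3%) and below B6 for 3 (background 39.4%), while for 6 the NOD libraries lay on either side. The median log2 fold change of the 40 was 1.58, beside 0.26 over all genes tested. Without Pdia3 and Calr, the pair that prompted the question, 17 of 38 were called higher and 1 lower, and the median was again 1.58. The difference of the medians, members minus all genes, was 1.32 with TMM and between 1.31 and 1.33 with the 3 other scalings tried. Summed over the 40 genes, the level was 4359 CPM in B6, 14991 CPM in NOD 1 and 13263 CPM in NOD 2, which is 3.44 and 3.04 times the B6 sum.

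The adjusted p of the 20 called members lay between 0.0190 and 0.0476, and 25 members had an unadjusted p under 0.05 (background 39.9%). These calls depended on the test used. With limma-voom no gene of the 14456 was called, and the smallest adjusted p among the members was 0.0631. In edgeR without the filter on low counts no gene was called either, and the smallest adjusted p was 0.0649. In both of these settings 25 members had an unadjusted p under 0.05 (backgrounds 27.1% with limma-voom and 33.2% without the filter). The DESeq2 test called 23 members higher (background 16.2%) and 1 lower (12.9%), and the legacy form of the edgeR test gave the same numbers of members (backgrounds 13.8% and 11.1%). The 4 members gained in each were Sdf2l1, Hyou1, Herpud1 and Txndc5. Other scalings within edgeR left the members' counts close to the reported ones. DESeq2 size factors gave 19 higher (background 10.2%) and 1 lower (8.27%), and total counts gave 18 higher (7.17%) and 1 lower (7.83%). Upper-quartile factors gave 19 higher (7.03%) and 0 lower (4.85%), and dispersion estimated inside the fit gave 21 higher (8.85%), gaining Sdf2l1 and Txndc5, and 1 lower (9.8%).

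**Figure D2:**
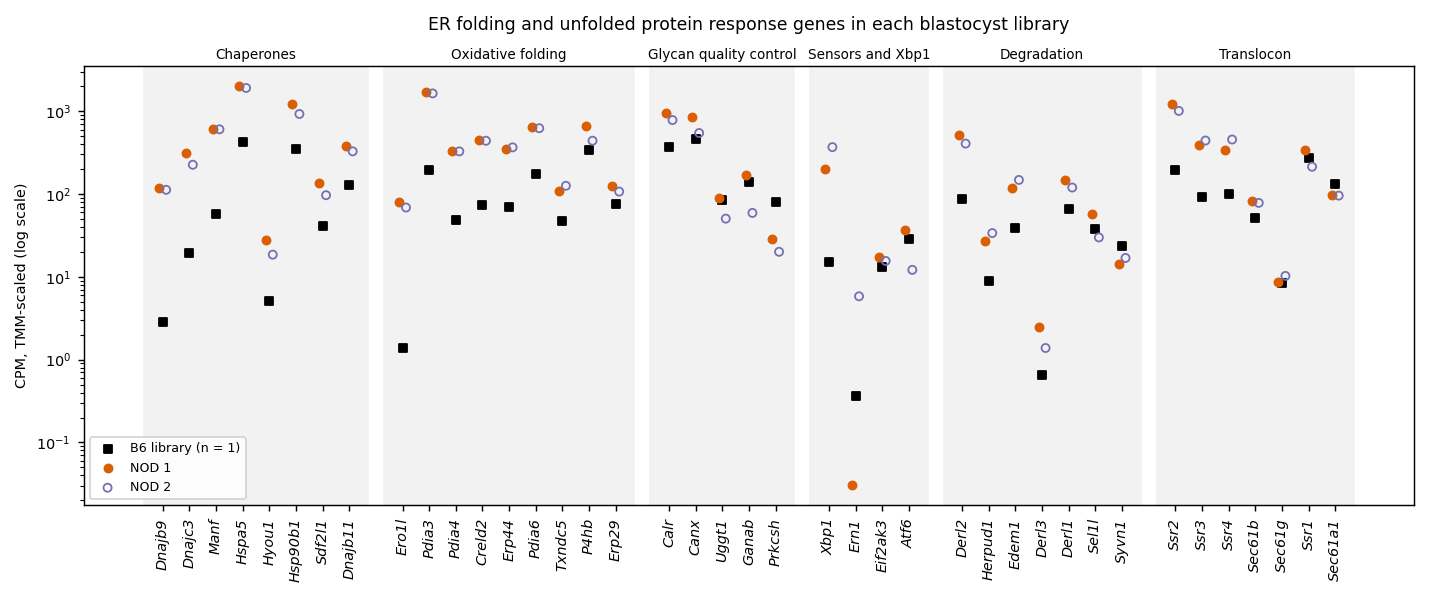
Level of each of the 40 genes in each library, in TMM-scaled CPM on a log scale, grouped by role and ordered within each role by fold change; squares are the B6 library (n = 1) and filled and open circles are NOD 1 and NOD 2. Both circles lie above the square for 31 genes, by the widest margin for Ero1l and Dnajb9, and below it for Prkcsh, Syvn1 and Sec61a1.

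Most chaperones of the ER lumen were called higher in NOD. Both NOD libraries lay above B6 for all 8 genes of this role (background 45.3%), 6 were called higher (background 10.3%) and none lower (background 7.39%), and the median log2 fold change was 2.2, where that of all genes was 0.26. Hspa5 (NM_022310, chromosome 2, 34772090 to 34776529) encodes BiP, the Hsp70 of the ER and the usual readout of ER stress. It had 5713 counts in B6 against 66590 and 64873 in NOD 1 and NOD 2, which is 419 CPM in B6 against 2014 and 1906 CPM in NOD 1 and NOD 2. The NOD libraries lay close together and well above B6, at 1960.4 ± 76.5 CPM in NOD (SD, n = 2) and a mean ratio of 4.68 to B6 (log2 fold change 2.23, standard error 0.20, adjusted p = 0.0196 in edgeR). Hsp90b1 (NM_011631, chromosome 10, 86690841 to 86705444), the ER form of Hsp90, had 352 CPM in B6 against 1218 and 925 CPM in NOD 1 and NOD 2, so that both NOD libraries were above B6 and differed from each other by 1.32-fold (log2 fold change 1.61, standard error 0.27, adjusted p = 0.0290). Transcripts of another gene share 13.8% of its 50-base words.

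Several helpers of BiP had larger fitted fold changes than BiP, a difference between genes that was not tested. Dnajb9 (NM_013760, chromosome 12, 44205897 to 44210068), a J-domain partner of BiP and a known target of XBP1, had only 39 counts in B6 against 3932 and 3822 in NOD 1 and NOD 2. On the CPM scale this was 2.86 CPM in B6 against 119 and 112 CPM in NOD 1 and NOD 2, a ratio of 40.4 with an exact 95% interval from 29.5 to 56.8 that covers counting error only (log2 fold change 5.33, standard error 0.42, adjusted p = 0.0196). Dnajc3 (NM_008929, chromosome 14, 118937932 to 118981702), which encodes the J-domain protein p58IPK, had 19.2 CPM in B6 against 316 and 225 CPM in NOD 1 and NOD 2, and both NOD libraries were more than 10 times as high as B6 (log2 fold change 3.82, standard error 0.38, adjusted p = 0.0196). Manf (NM_029103, chromosome 9, 106887415 to 106891938), a small protein that binds BiP and is released from stressed cells, had 57.2 CPM in B6 against 613 and 604 CPM in NOD 1 and NOD 2, with the NOD libraries almost level (log2 fold change 3.41, standard error 0.25, adjusted p = 0.0190). Dnajb11 (NM_001190804, chromosome 16, 22857845 to 22872465), a further J-domain partner of BiP, had 127 CPM in B6 against 377 and 327 CPM in NOD 1 and NOD 2 (log2 fold change 1.47, standard error 0.25, adjusted p = 0.0308). Sdf2l1, which works with Dnajb11, and Hyou1, a large Hsp70-like protein that helps BiP release its nucleotide, were higher in both NOD libraries but just outside the threshold. Sdf2l1 had 40.6 CPM in B6 against 134 and 96.7 CPM in NOD 1 and NOD 2 (log2 fold change 1.51, adjusted p = 0.0538), and Hyou1 had 5.06 CPM in B6 against 27.5 and 18.5 CPM in NOD 1 and NOD 2 (log2 fold change 2.18, adjusted p = 0.0591).

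Most genes for disulfide formation were also called higher in NOD. All 9 genes of this role lay above B6 in both NOD libraries, 6 were called higher and none lower (backgrounds 45.3%, 10.3% and 7.39%), and the median log2 fold change was 2.34. Pdia3 (NM_007952, chromosome 2, 121413902 to 121438686) encodes ERp57, the isomerase that works with calreticulin and calnexin on glycoproteins and in loading peptides on MHC class I. It had 2651 counts in B6 against 57017 and 55782 in NOD 1 and NOD 2, which is 195 CPM in B6 against 1725 and 1639 CPM in NOD 1 and NOD 2, and the NOD libraries differed from each other by 1.05-fold. It was thus 8.65 times as high in NOD as in B6 (log2 fold change 3.11, standard error 0.22, adjusted p = 0.0190). Among the 40 genes its fold change ranked 6th, after Ero1l, Dnajb9, Xbp1, Dnajc3 and Manf.

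Ero1l (NM_015774, chromosome 14, 45283087 to 45318572), the oxidase that passes oxidising power to the isomerases, had the largest fold change of the 40. Its 19 counts in B6 against 2656 and 2336 in NOD 1 and NOD 2 gave 1.39 CPM in B6 against 80.4 and 68.6 CPM in NOD 1 and NOD 2, so that per transcript length it ranked 39th of the 40 genes in B6 and 29th in both NOD libraries. The ratio was 53.4, with an exact 95% interval from 34.1 to 88.7 for counting error (log2 fold change 5.74, standard error 0.51, adjusted p = 0.0196). Erp44 (NM_029572, chromosome 4, 48193331 to 48279589), which holds ERO1 and unfinished proteins in the early secretory pathway, had 70.4 CPM in B6 against 347 and 366 CPM in NOD 1 and NOD 2 (log2 fold change 2.34, standard error 0.26, adjusted p = 0.0204). Pdia4 (NM_009787, chromosome 6, 47796141 to 47813512) had 48.4 CPM in B6 against 330.0 and 327 CPM in NOD 1 and NOD 2 (log2 fold change 2.76, standard error 0.26, adjusted p = 0.0196), and Pdia6 (NM_027959, chromosome 12, 17266595 to 17284770) had 177 CPM in B6 against 647 and 623 CPM in NOD 1 and NOD 2 (log2 fold change 1.85, standard error 0.23, adjusted p = 0.0220). Both encode isomerases of the lumen, and the difference from B6 was many times that between the NOD libraries. Because the counting joined both strands, reads on the stretch that Pdia6 shares with Atp6v1c2, and on Mir704 within Pdia4, cannot be told apart from those of the neighbour. Creld2 (NM_029720, chromosome 15, 88819646 to 88826681), a protein related to the isomerases and induced by ER stress, had 74.2 CPM in B6 against 449 and 439 CPM in NOD 1 and NOD 2 (log2 fold change 2.58, standard error 0.25, adjusted p = 0.0196).

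The remaining isomerases of this role were not called in the reported test, and Txndc5 was called higher in 3 of the other settings. P4hb, the founding protein disulfide isomerase, was the most abundant of them in B6 and had 338 CPM in B6 against 659.6 and 439.5 CPM in NOD 1 and NOD 2, with the NOD libraries 1.5-fold apart (log2 fold change 0.70, adjusted p = 0.172). Txndc5, an isomerase with several thioredoxin-like domains, had 47.0 CPM in B6 against 110.1 and 126 CPM in NOD 1 and NOD 2 (log2 fold change 1.33, adjusted p = 0.0505). Erp29, a relative without a working active site, had 75.2 CPM in B6 against 123 and 107 CPM in NOD 1 and NOD 2 (log2 fold change 0.61, adjusted p = 0.192), and 36.6% of the 50-base words in its transcripts are not unique to it. Per length, Pdia3 stood at 0.552 times the level of P4hb in B6, and at 2.51 and 3.58 times its level in NOD 1 and NOD 2, a pair compared after its values were seen.

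Of the 5 genes of the lectin cycle 1 was called higher (background 10.3%) and 1 lower (background 7.39%), each of which lost its call under another scaling, and the median log2 fold change was -0.27. With 5 genes, no difference from the background is read from these counts. Calr (NM_007591, chromosome 8, 84842088 to 84846931), calreticulin, had 5058 counts in B6 against 31754 and 26577 in NOD 1 and NOD 2, which is 371 CPM in B6 against 961 and 781 CPM in NOD 1 and NOD 2. Both NOD libraries were more than 2 times as high as B6 (log2 fold change 1.23, standard error 0.24, adjusted p = 0.0372), the smallest called rise of the set. Scaling by total counts alone ended this call (adjusted p = 0.0559). Canx (NM_007597, chromosome 11, 50293957 to 50325673), calnexin, the membrane-bound counterpart of calreticulin, had 467 CPM in B6 against 847 and 545 CPM in NOD 1 and NOD 2. Both NOD libraries lay above B6, with a spread between them that was wide against that difference (log2 fold change 0.58, standard error 0.33, adjusted p = 0.246).

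Glucosidase II trims the sugars that the lectins read, and its subunits had different calls, a difference that was not itself tested. Prkcsh (NM_001293650, chromosome 9, 22002988 to 22014245), the beta subunit that keeps the enzyme in the ER, had 1099 counts in B6 against 957 and 682 in NOD 1 and NOD 2, which is 80.6 CPM in B6 against 29.0 and 20.04 CPM in NOD 1 and NOD 2. Both NOD libraries lay below B6, at 0.359 and 0.249 times its level (log2 fold change -1.72, standard error 0.39, adjusted p = 0.0476), and this was the single member called lower. The call was lost with upper-quartile scaling (adjusted p = 0.0573). Ganab, the catalytic alpha subunit, had 138 CPM in B6 against 169 and 59.1 CPM in NOD 1 and NOD 2, with B6 between the NOD libraries (log2 fold change -0.28, standard error 0.64, adjusted p = 0.757). Per length, Ganab stood at 0.899 times the level of Prkcsh in B6, 3.05 times in NOD 1 and 1.54 times in NOD 2. This pair was not planned in advance. Uggt1, which puts the sugar back on proteins that are still unfolded, likewise had B6 between the NOD libraries, with 84.5 CPM in B6 against 89.8 and 50.4 CPM in NOD 1 and NOD 2 (log2 fold change -0.27, adjusted p = 0.667), and its span holds Mir6897.

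**Figure D3:**
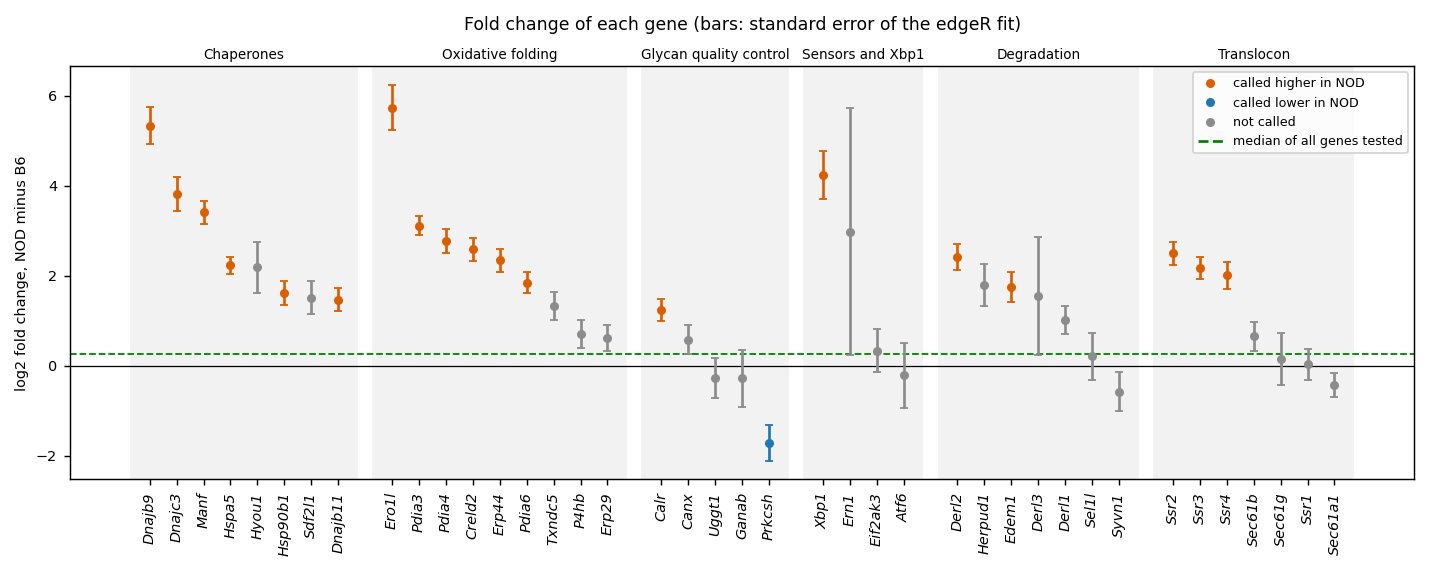
Fitted log2 fold change of NOD (n = 2) minus B6 (n = 1) for each gene, grouped by role, with bars of 1 standard error from the edgeR fit; orange marks genes called higher, blue the gene called lower and grey genes that were not called. The dashed line is the median of all genes tested, 0.26, and all 8 chaperones and all 9 genes for disulfide formation lie above it while the 5 genes of the lectin cycle lie on both sides.

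Of the 4 sensors and transcription factors of the response, Xbp1 alone was called (background 10.3% higher). Xbp1 (NM_013842, chromosome 11, 5520641 to 5525993) had 204 counts in B6 against 6594 and 12520 in NOD 1 and NOD 2, which is 15.0 CPM in B6 against 199 and 368 CPM in NOD 1 and NOD 2. Both NOD libraries were more than 10 times as high as B6 and differed from each other by 1.84-fold, the widest gap between NOD libraries among the genes called higher (log2 fold change 4.24, standard error 0.54, adjusted p = 0.0228). Counts summed over exons do not separate the spliced from the unspliced mRNA.

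The 3 sensors themselves were not called. Ern1, which encodes IRE1 alpha, had 5 counts in B6 against 1 and 198 in NOD 1 and NOD 2, that is 0.367 CPM in B6 against 0.0303 and 5.82 CPM in NOD 1 and NOD 2. Nearly all of its counts were in NOD 2, the B6 count was near the floor of 3 counts (0.220 CPM), and NOD 1 was below it, so that the libraries do not separate by strain (log2 fold change 2.98, standard error 2.74, adjusted p = 0.441). The values for NOD 1 alone and NOD 2 alone had opposite signs, -3.39 and 3.98. Atf6 had 28.5 CPM in B6 against 37.1 and 12.1 CPM in NOD 1 and NOD 2, with B6 between the NOD libraries, which differed by 3.06-fold (log2 fold change -0.21, standard error 0.73, adjusted p = 0.838). Eif2ak3, which encodes PERK, had 13.1 CPM in B6 against 17.6 and 15.5 CPM in NOD 1 and NOD 2 and was close in all 3 libraries (log2 fold change 0.33, standard error 0.47, adjusted p = 0.615). Whether the fold change of Xbp1 differed from those of the sensors was not tested.

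ER-associated degradation removes proteins that do not fold. Of 7 genes 2 were called higher (background 10.3%) and none lower (background 7.39%), with a median log2 fold change of 1.55 beside 0.26 over all genes, and with so few genes nothing is read from these counts. Derl2 (NM_001291147, chromosome 11, 71007440 to 71019303), one of the derlins that carry proteins out of the ER, had 86.1 CPM in B6 against 511 and 406 CPM in NOD 1 and NOD 2, with both NOD libraries well above B6 (log2 fold change 2.41, standard error 0.29, adjusted p = 0.0215). Of the 50-base words in its transcripts, 12.8% are found in other genes too. Edem1 (NM_138677, chromosome 6, 108828641 to 108859356), which marks misfolded glycoproteins and is a known target of XBP1, had 39.3 CPM in B6 against 117 and 148 CPM in NOD 1 and NOD 2 (log2 fold change 1.75, standard error 0.34, adjusted p = 0.0364). Herpud1, a membrane protein of the degradation complex, and Derl1 were higher in both NOD libraries without passing the threshold. Herpud1 had 8.80 CPM in B6 against 27.2 and 33.7 CPM in NOD 1 and NOD 2 (log2 fold change 1.79, adjusted p = 0.0586) and Derl1 had 66.1 CPM in B6 against 148 and 119.7 CPM in NOD 1 and NOD 2 (log2 fold change 1.02, adjusted p = 0.0817). Derl3 had few counts in every library, with 9 counts in B6 against 83 and 47 in NOD 1 and NOD 2 (log2 fold change 1.55, standard error 1.31, adjusted p = 0.407).

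The ubiquitin ligase of this pathway was not called. Syvn1, the ligase HRD1, had 23.3 CPM in B6 against 14.3 and 16.9 CPM in NOD 1 and NOD 2, so that both NOD libraries were somewhat below B6 (log2 fold change -0.58, adjusted p = 0.360). Its span overlaps those of Mrpl49 and Mir6988. Sel1l, the partner that feeds proteins to HRD1, had 37.9 CPM in B6 against 57.4 and 29.9 CPM in NOD 1 and NOD 2, with B6 between the NOD libraries (log2 fold change 0.20, adjusted p = 0.781).

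At the entry to the ER, 3 of 7 genes were called higher (background 10.3%) and none lower (background 7.39%), and the median log2 fold change was 0.65 beside 0.26 over all genes. The called genes, Ssr2, Ssr3 and Ssr4, encode the beta, gamma and delta subunits of the TRAP complex, which helps some proteins through the channel. Ssr2 (NM_025448, chromosome 3, 88579671 to 88588413) had 2682 counts in B6 against 40011 and 34288 in NOD 1 and NOD 2, which is 197 CPM in B6 against 1210.4 and 1008 CPM in NOD 1 and NOD 2 (log2 fold change 2.49, standard error 0.25, adjusted p = 0.0196). Ssr3 (NM_026155, chromosome 3, 65379657 to 65392553) had 93.0 CPM in B6 against 395 and 442 CPM in NOD 1 and NOD 2 (log2 fold change 2.17, standard error 0.25, adjusted p = 0.0212), and Ssr4 (NM_001166480, chromosome X, 73787028 to 73790828) had 98.9 CPM in B6 against 342 and 455 CPM in NOD 1 and NOD 2 (log2 fold change 2.01, standard error 0.30, adjusted p = 0.0257). In each of these genes both NOD libraries were more than 3 times as high as B6.

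Ssr1, the alpha subunit of the same complex, had 271 CPM in B6 against 337 and 213 CPM in NOD 1 and NOD 2, with B6 between the NOD libraries (log2 fold change 0.03, adjusted p = 0.961), and the sign of its value turned under other scalings. Levels per length of partners were compared within a library, for pairs not planned in advance. They rest on the listed lengths, 9296 bases for Ssr1, 1176 for Ssr2 and 796 for Ssr4. Ssr2 stood at 5.75 times the level of Ssr1 in B6, 28.4 times in NOD 1 and 37.3 times in NOD 2. In the same order, Ssr3 stood at 1.11, 3.79 and 6.69 times and Ssr4 at 4.27, 11.8 and 24.9 times. Of the other pairs, Calr stood at 1.76, 2.51 and 3.17 times Canx and Hspa5 at 1.25, 1.74 and 2.17 times Hsp90b1. The subunits of the Sec61 channel were not called. Sec61a1, the pore, had 131 CPM in B6 against 98.4 and 95.6 CPM in NOD 1 and NOD 2 (log2 fold change -0.43, adjusted p = 0.285), and 14.6% of its 50-base words are not unique to it. Of its small partners, Sec61b had 51.4 CPM in B6 against 83.4 and 78.1 CPM in NOD 1 and NOD 2 and Sec61g had 8.51 CPM in B6 against 8.59 and 10.3 CPM in NOD 1 and NOD 2. They had log2 fold changes of 0.65 and 0.15 (adjusted p = 0.198 and 0.860), and 41.0% and 44.4% of their 50-base words occur in other genes. The value of Sec61g turned to -0.0412 when libraries were scaled by total counts.

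Per transcript length, in FPKM computed from the scaled CPM and the listed gene length, the order of the genes differed between the B6 library and the NOD libraries. In B6 the highest levels were 192 FPKM for Calr, 167 for Ssr2, 161 for Hspa5, 134 for P4hb and 128 for Hsp90b1. Pdia3 was 10th there, at 74.0 FPKM. In NOD the highest were Ssr2 (1029 FPKM in NOD 1 and 857 in NOD 2), Hspa5 (773 and 732) and Pdia3 (657 and 624), in this order in both libraries. Next came Calr (497 FPKM), Hsp90b1 (445) and Ssr4 (429) in NOD 1, and Ssr4 (571) and Calr (404) in NOD 2. The lowest level in B6 was that of Ern1, 0.0928 FPKM. Over the 40 genes Spearman's rho of FPKM was 0.980 for the pair of NOD libraries, and that of B6 was 0.831 with NOD 1 and 0.791 with NOD 2. This is a description across genes of single libraries, which share their gene lengths. The NOD libraries differed from each other by more than 2-fold in 3 of the 40 genes, Ern1, Atf6 and Ganab, all uncalled.

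**Figure D4:**
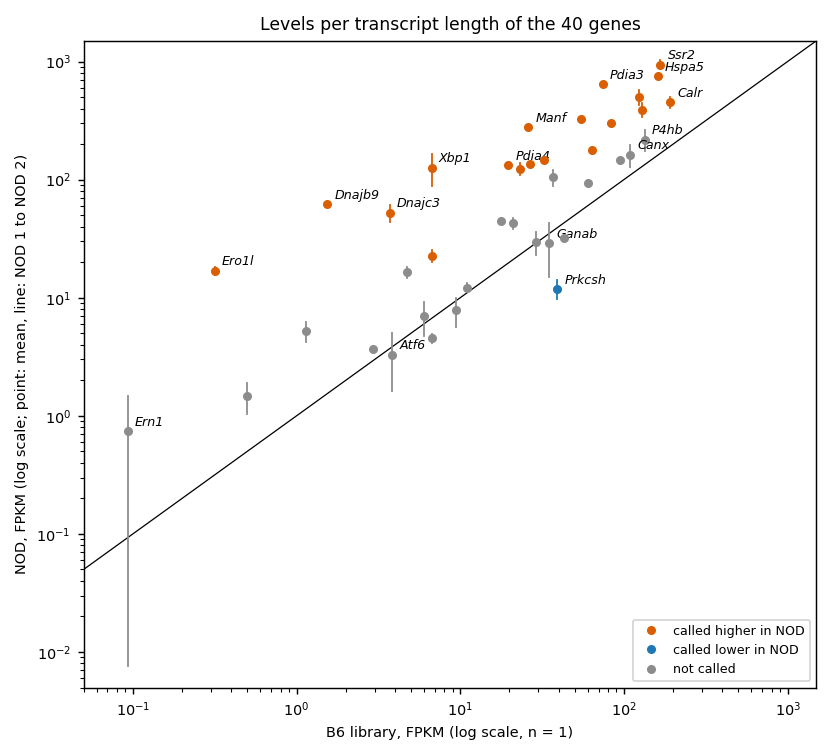
Level per transcript length of the 40 genes, in FPKM on log scales, in B6 (horizontal, n = 1) and NOD (vertical, point at the mean and line from one NOD library to the other). The diagonal is equality. The genes called higher (orange) lie above it, Prkcsh (blue) lies below it, and the line is long for Ern1, which runs from 0.00766 to 1.47 FPKM.

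Further genes of the ER were taken from lists picked by role. Of 120 such genes 117 were tested, 41 were called higher (35.0%, background 10.3%) and 5 lower (background 7.39%), and their median log2 fold change was 1.10 beside 0.26 over all genes. The same backgrounds apply to the counts of the single lists that follow, which hold 6 to 21 genes each. Oligosaccharyltransferase, the complex that adds the first sugar chain to proteins entering the ER, had 6 of 11 genes called higher and none lower, with Ddost at 1.75 (adjusted p = 0.0223), Stt3a at 1.83 (adjusted p = 0.0225), Ostc at 1.94 (adjusted p = 0.0216) and Rpn1 at 1.25 (adjusted p = 0.0335) on the log2 fold scale. Its subunit Tusc3, named here after its values were seen, had 1 count in B6 against 984 and 1159 in NOD 1 and NOD 2. The B6 count lies under the floor of 3 counts, and the counts give a ratio of 435 with an exact 95% interval from 78.1 to 17204. Tusc3 is counted among the 6 and passed the filter on low counts through the NOD libraries alone. Its call is thus not independent of its high level there.

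Targeting to the ER and removal of the signal peptide had 9 of 17 genes called higher and 2 lower. Spcs2 (log2 fold change 2.28, adjusted p = 0.0196) and Sec11a (log2 fold change 2.26, adjusted p = 0.0208) belong to signal peptidase. Srp14 (log2 fold change 1.62, adjusted p = 0.0237) and Srp19 (log2 fold change 1.17, adjusted p = 0.0354) belong to the signal recognition particle. Srp72 and Srp9 of the same particle were called lower, Srp72 at -1.52 (adjusted p = 0.0259) and Srp9 at -2.38 (adjusted p = 0.0244), so that its subunits did not move in 1 direction. Srp54b and Srp54c, counted among the 9, have identical counts in all 3 libraries and are 1 measurement.

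The further thiol oxidoreductases of the ER had 10 of 18 genes called higher and none lower. Sep15, a selenoprotein that works with the glucosyltransferase, had 166 CPM in B6 against 959 and 931 CPM in NOD 1 and NOD 2 (log2 fold change 2.51, adjusted p = 0.0196). Txndc12 was at 4.45 (adjusted p = 0.0193), Tmx1 at 2.90 (adjusted p = 0.0196) and Pdia5 at 1.80 (adjusted p = 0.0284) on the same scale. Of the peptidyl-prolyl isomerases, which turn proline bonds, 2 of 7 were called higher and none lower. Ppic had 3.74 CPM in B6 against 227 and 185 CPM in NOD 1 and NOD 2 (log2 fold change 5.78, adjusted p = 0.0190), and Fkbp11 was at 2.4 (adjusted p = 0.0231). Further chaperones and receptors that return proteins to the ER had 7 of 18 called higher, led in level by Lman2, Serp1, Mcfd2 and Tor1a. The 1 called lower was Cnpy3 (log2 fold change -2.58, adjusted p = 0.0242).

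Further lists held other arms of the response. Of 12 genes of the PERK and ATF4 branch, 3 were called higher (background 10.3%) and 1 lower (background 7.39%), and the median log2 fold change was -0.81. Ddit3, which encodes the death-promoting factor CHOP, had 1650 counts in B6 against 1246 and 977 in NOD 1 and NOD 2 and was called lower (log2 fold change -1.87, standard error 0.34, adjusted p = 0.0345). Atf4 had 189 CPM in B6 against 138 and 101 CPM in NOD 1 and NOD 2, with both NOD libraries below B6, and was not called (log2 fold change -0.66, adjusted p = 0.173). The genes called higher were Eif2s1, the alpha subunit of the initiation factor that PERK phosphorylates (log2 fold change 2.12, adjusted p = 0.0223), Asns, asparagine synthetase (log2 fold change 4.42, adjusted p = 0.0204), and Nupr1. Nupr1 had 0 counts in B6 against 254 and 1090 in NOD 1 and NOD 2. Its mean in NOD was at least 90.2-fold higher than the 3 counts that a count of 0 in B6 allows. By library, NOD 1 was at least 34.9-fold and NOD 2 at least 146-fold higher (adjusted p = 0.0354 in edgeR). Nupr1 passed the filter on low counts through the NOD libraries alone, so its call is not independent of its high level there. None of the 7 genes for ATF6 processing and its relatives was called in edgeR, and 3 had an unadjusted p under 0.05, where the background was 39.9%.

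Further genes of ER-associated degradation had 4 of 21 called higher and 1 lower, beside the same backgrounds. Those higher were Vimp (log2 fold change 2.83, adjusted p = 0.0196), Selk (log2 fold change 1.99, adjusted p = 0.0235), March6 (log2 fold change 2.04, adjusted p = 0.0404) and Rhbdd1 (log2 fold change 3.16, adjusted p = 0.0488). Vcp, the ATPase that pulls proteins out of the membrane, had 9036 counts in B6 against 644 and 467 in NOD 1 and NOD 2, so that both NOD libraries were far below B6 (log2 fold change -5.32, standard error 0.31, adjusted p = 0.0190). None of the 6 genes that load peptides on MHC class I, the process in which Pdia3 and Calr also act, was called in edgeR, and 1 of them, B2m, had an unadjusted p under 0.05 (background 39.9%). B2m, the light chain of class I, had 66.5 CPM in B6 against 127 and 114 CPM in NOD 1 and NOD 2.

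Chaperones outside the ER served as a comparison list. Of 46 cytosolic and mitochondrial chaperone genes 9 were called higher (19.6%, background 10.3%) and 3 lower (6.52%, background 7.39%), and the median log2 fold change was 0.18, beside 0.26 over all genes and 1.58 over the 40 ER genes. Their summed level was 1.11 times that of B6 in NOD 1 and 1.22 times in NOD 2. Stip1 (log2 fold change 1.95, adjusted p = 0.0426), Grpel1 (log2 fold change 1.13, adjusted p = 0.0354), Dnaja1 (log2 fold change 1.14, adjusted p = 0.0351) and Ahsa1 (log2 fold change 1.36, adjusted p = 0.0308) were the most abundant of those called higher. Hspa8, the constitutive Hsp70 of the cytosol, was called lower, with 399 CPM in B6 against 108 and 128 CPM in NOD 1 and NOD 2 (log2 fold change -1.76, adjusted p = 0.0235), as were Hspe1 (log2 fold change -1.24, adjusted p = 0.0370) and Pfdn5 (log2 fold change -1.31, adjusted p = 0.0351). Hspa5 and Hspa8, the Hsp70 proteins of the ER and the cytosol, thus differed from B6 in opposite directions in both NOD libraries. The difference between the lists was not tested.

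**Figure D5:**
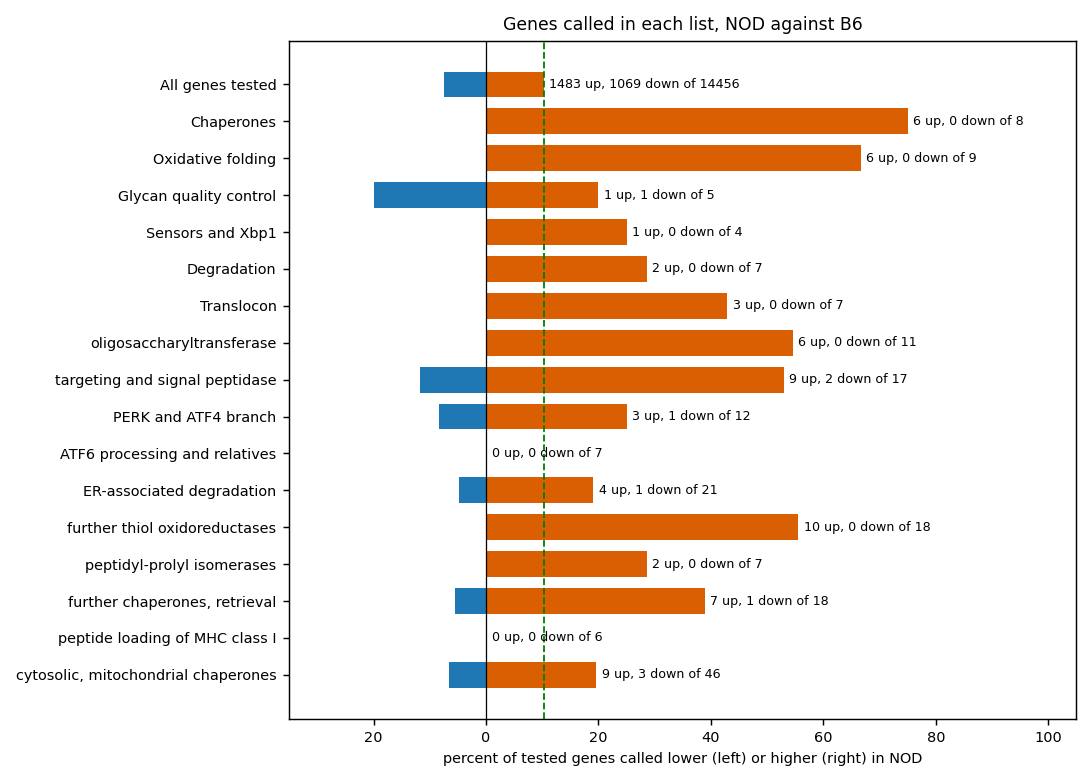
Percent of tested genes called higher (to the right, orange) and lower (to the left, blue) in NOD, for all genes, the 6 roles of the 40 genes, the further ER lists and the comparison list, with the counts beside each bar. The dashed line marks the 10.3% of all genes that were called higher, and the bars for chaperones (75.0%) and oxidative folding (66.7%) are the longest.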

How the data were processed

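Per the labels, libraries of whole blastocysts were made with the SMART-Seq V4 kit and sequenced as single-end reads of 50 bases. The study's methods give single ICMs, amplification with PCR and alignment to mm10 with STAR. Reads of both strains were aligned to this 1 reference, and the effect of sequence differences between strains on the counts was not tested. The submitters' processing notes name STAR 2.2.0c and CASAVA 1.8.2, and the methods name a later STAR. The deposited values are raw counts per RefSeq gene from HOMER, which the authors made by counting reads of either strand on the exons of 1 transcript per gene. The treatment of reads that align to several places is not given in the sources used here. The header names further libraries in its HOMER command, but these have no column of counts, and no mitochondrially encoded gene is in the table. Reads without molecular identifiers are not independent molecules, so intervals and floors (3 counts) cover counting error only.

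Groups were taken from the strain and title labels. Low counts were removed with filterByExpr at a minimum count of 10. TMM factors were 1.09 (B6), 0.9753 (NOD 1) and 0.9408 (NOD 2). The software edgeR 4.0.16 (R 4.3.3) was used for the quasi-likelihood test with trended dispersion, 1 residual degree of freedom and 3.78 prior degrees of freedom. Standard errors were obtained as log2 fold change over the root of F. An exact permutation of 1 library against 2 cannot go below p = 0.333. Alternatives were the size factors of DESeq2 1.42.0, total counts, upper-quartile factors, no filter on low counts, the DESeq2 test, limma-voom (limma 3.58.1), the legacy quasi-likelihood fit, leaving out each NOD library, and, added after seeing the data, dispersion estimated inside glmQLFit. Promoters and spans were read from RefSeq (GRCm38.p6), and shared 50-base words were counted in GENCODE M21 transcripts with Python 3.11.15 and pandas 2.3.3.

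The members, the lists and the tests were chosen with earlier results of these data known. All 40 members are accounted for. Full statistics are given for each called member, for Pdia3, Calr, Canx, Hspa5, Hsp90b1, Xbp1, Ern1, Atf6 and Eif2ak3, and for the further member of each role with the highest level per length. Of the other lists, called members are named, at most 4 per list and direction, by highest mean CPM. Protein sequences were not used here.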

Additional observations from a re-analysis of the deposited data

How the results depend on the processing

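Of the 19 members called higher, 18 were also called in all 6 alternative tests that called any gene. The exception was Calr with total counts (adjusted p = 0.0559). No gene was called without the filter on low counts, with 0 members and 0 of 16765 genes in either direction, where an unadjusted p under 0.05 was reached by 25 members and 5568 genes. The same held with limma-voom, with 0 in either direction for members and for all genes, a smallest adjusted p of 0.0501, and 25 members and 3924 genes with an unadjusted p under 0.05. With upper-quartile factors, 0 members and 701 genes were called lower, Prkcsh being the member lost (adjusted p = 0.0573). Over all genes, the DESeq2 test called 2346 higher and 1864 lower, and the legacy fit called 1611 lower. The median of the members was 1.40 with total counts and 1.42 to 1.60 without either NOD library. The median of all genes moved from 0.26 to 0.07 with total counts, where 47.8% of calls were higher in NOD, and 47.5% were with dispersion estimated inside glmQLFit, against 58.1% in the reported test. Among the members, signs turned only for genes that were not called. Ssr1 was at -0.0145 with DESeq2 size factors or limma-voom, at -0.0146 with the DESeq2 test and at -0.15 with total counts, and Sec61g was at -0.0412 with total counts. The cause of these changes was not tested. No paired analysis was possible because B6 has a single library. Leaving out a NOD library left no residual degree of freedom, so that those are values without a test. The sign turned without NOD 1 for Sel1l (0.20 to -0.33) and Ssr1 (0.03 to -0.33), and without NOD 2 for Ern1 (2.98 to -3.39), Atf6 (-0.21 to 0.38), Uggt1 (-0.27 to 0.09) and Ganab (-0.28 to 0.28), the 6 members whose NOD libraries lay on either side of B6. The depth of B6 limits Ero1l, Dnajb9, Ern1 and Derl3, with 5 to 39 counts there.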
